A study of Homo sapiens with 6 samples.

Results

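UPP1 (ENSG00000183696.9) encodes uridine phosphorylase 1 and was read as 95 isoforms in long-read cDNA libraries of human bronchial epithelial cells. It is 1 of 11034 genes with an Ensembl identifier in the deposited table, and its isoforms are 95 of 63224. All isoforms that the table assigns to this gene identifier were taken, and their exon chains came from the deposited transcript models. UPP1 was chosen because earlier results of these same libraries showed its level and isoforms to differ between genotypes. Its own differences between genotypes are therefore given as a description with no test.

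Uridine phosphorylase 1 catalyses the reversible phosphorolysis of uridine to uracil and ribose 1-phosphate. The uracil can be broken down or returned to nucleotides, and the ribose 1-phosphate can enter the pentose phosphate pathway. U2AF1 is the small subunit of the splicing factor that recognises the AG at the end of an intron, the 3′ splice site. The S34F substitution, recurrent in lung adenocarcinoma and myelodysplastic syndromes, lies in a zinc finger of U2AF1 and is known to alter which 3′ splice sites and cassette exons are used.

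HBEC3kt is an immortalised line of human bronchial epithelial cells. The study compared wild-type U2AF1 cells (WT) with cells carrying U2AF1 S34F, in 3 libraries each. Each genotype had 2 isolates. Replicate 1 was isolate 1 and replicate 2 was isolate 2, both with the mark B1 in the label, while replicate 3 was a B2-marked library of isolate 2. The sources used here give neither the derivation of the isolates nor the meaning of the marks, and the substitution itself was not checked because the files hold counts. PolyA-primed cDNA was read on a nanopore sequencer, so that a read can join exon choices with the 3′ end. Libraries held 451540 to 1720292 assigned reads, and all 3 S34F libraries were smaller than the smallest WT library. Of 10 basal epithelial markers all had reads, with summed levels of 6379 to 7883 CPM (counts scaled to a library of 1000000 reads) in WT and 6316 to 8494 CPM in S34F; 1 of them, LAMB3, was called lower in S34F (edgeR log2 fold change -1.39, adjusted p = 0.029). KRT5, a basal keratin named after its values were seen, did not pass, at 289 to 531 CPM in WT and 739 to 1427 CPM in S34F (edgeR log2 fold change 1.34, adjusted p = 0.0512); 6 of the 10 markers had a positive fold change. Markers of secretory (5), ciliated (4) and fibroblast cells (6) had no isoform in the deposited counts, which is not a measured count of 0. Of 6 blood markers only CD14 had an isoform there, at no more than 5.09 CPM. The labels do not say that the libraries come from separate cultures, so every p-value reflects the library-to-library spread alone, which may be technical.

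The UPP1 models lie on the plus strand of chromosome 7, positions 48128226 to 48148314 of hg19. Exons are numbered 1 to 10 after the longest protein-coding UPP1 transcript of GENCODE v29, whose annotated start codon lies in exon 4 and whose coding sequence has 310 codons. The combinations described here are choices among exons 5, 6 and 7, between exon 4 (48134360 to 48134424) and exon 8 (48146470 to 48146679). Exon 5 is 118 bases long and exon 7 is 115. Exon 6 (48141421 to 48141579) has a long form of 159 bases and a short form of 47 bases that ends at an inner 5′ splice site at 48141467. A rarer form of 163 bases ends at 48141583, and an exon 4b of 98 bases lies between exons 4 and 5. Both count among the combinations but are not described further. The sequence of exon 6 is shown because the results turn on its long and short forms. Capitals mark the 112 bases that the short form lacks, which open with the GT of the inner 5′ splice site.
Exon 6: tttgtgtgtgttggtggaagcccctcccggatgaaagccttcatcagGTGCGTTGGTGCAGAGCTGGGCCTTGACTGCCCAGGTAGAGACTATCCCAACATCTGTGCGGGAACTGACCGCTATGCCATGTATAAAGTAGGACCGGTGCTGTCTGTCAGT
When exons 5 to 7 are all skipped, exon 4 (lower case) joins exon 8 (capitals) directly.
Junction of exon 4 with exon 8: agctgaaagtcacaaGTCTGGAGCCCGGCA

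Sequence was at hand for 6 of the 3′ splice sites used by UPP1, and they are shown because U2AF1 reads this part of the intron. Capitals mark the last 3 bases before the exon.
Exon 2 at 48128809: tagcggtaacccccgggCAGggcggg
Exon 2 at 48128851: atatgagattcacctcgCAGgtggtt
Exon 2 at 48128869: aggtggttccctcattcGAGtgctcc
Exon 2 at 48128884: tcgagtgctccggcgcaCAGacccgc
Exon 3 at 48129847: cgtctcctgtcccaattCAGggcttg
Exon 8 at 48146470: atgtctgcttttttcctCAGgtctgg
All but the site at 48128869 have C at the base before the AG. The 3′ splice sites of exons 5, 6 and 7 were not analysed here.

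UPP1 reads ended at 2 main positions in exon 10, the proximal end at 48148012 and the distal end 302 bases further on at 48148314. The last 30 bases before each are shown to compare their polyadenylation signals; capitals mark the motif ATTAAA, a known variant of the signal AATAAA, whose first base lies 16 bases before the proximal end.
Proximal end: tgtgatgacttgccATTAAAagcattgtcc
Distal end: agtgccaggaaactaatttcctgatacatt
Neither AATAAA nor ATTAAA was in the last 40 bases before the distal end on the plus strand. Over all protein-coding transcripts of GENCODE v29, 34.4% hold AATAAA and 10.2% hold ATTAAA in their last 40 bases. Exon and 3′ end sequences are from GENCODE v29 (GRCh38) and the outermost exon 2 site is from RefSeq promoters (GRCh38.p14); positions are hg19, and the exons were matched by their lengths.

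UPP1 was read 2020, 1793 and 1282 times in WT libraries 1 to 3 and 91, 86 and 103 times in S34F libraries 1 to 3. Scaled for library size, these were 1203, 1521 and 763 CPM in WT and 149, 183 and 97.3 CPM in S34F. The lowest WT library thus lay far above the highest S34F library, and replicate 3 was the lowest of its genotype in both. The means were 1162 ± 381 (SD, n = 3) and 143 ± 43.0 CPM, an 8.12-fold difference and a log2 fold change of -3.01. Of 7033 genes tested by edgeR, 2.13% were lower in S34F at an adjusted p under 0.05, and in 7.95% every WT library lay above every S34F library; 31 genes had a lower fold change, placing UPP1 the 32nd from the bottom. UPP1 was chosen from this contrast, so nothing is read from its rank. In bulk RNA, fewer UPP1-expressing cells and less UPP1 RNA per cell cannot be told apart.

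**Figure D1:**
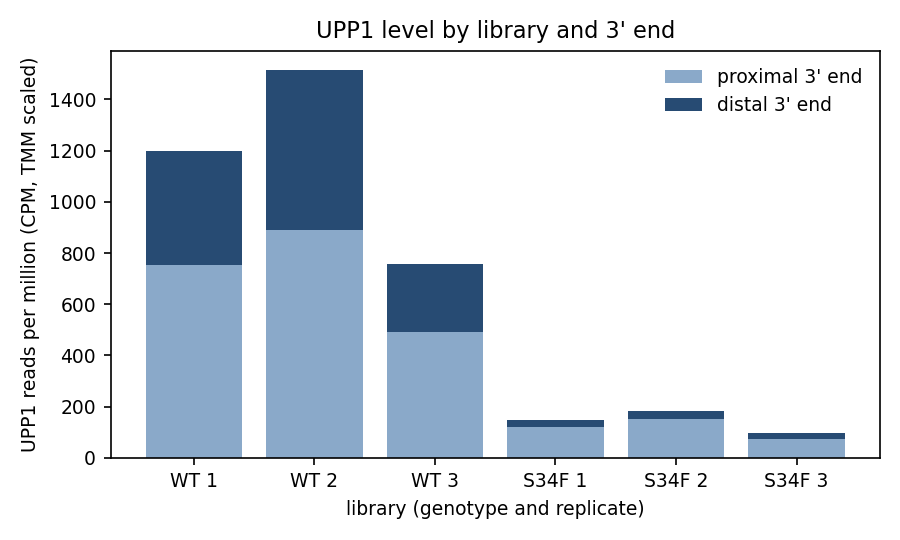
UPP1 level in CPM (TMM scaled, vertical axis) in each library, with the bar divided into reads of the proximal and the distal 3′ end. Reads at other ends, at most 0.55% of the UPP1 reads of a library, are not drawn. Over all reads the 3 WT libraries stand at 763 CPM or more and the 3 S34F libraries at 183 CPM or less.

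The genes whose pattern over the 6 libraries was closest to that of UPP1 were chosen from all genes tested by the root mean square difference of log2 CPM after subtracting each gene's mean. NNMT, nicotinamide N-methyltransferase, came closest at 0.37 on the log2 scale, with 57.1 to 70.4 CPM in WT and 4.72 to 11.5 CPM in S34F. TRIB3, a pseudokinase induced in the integrated stress response, followed at 0.38, with 746 to 1897 CPM in WT and 98.6 to 185 CPM in S34F. The antisense RNA PPP1R14B-AS1 (0.39), the gasdermin gene GSDMA (0.40), the EGF receptor ligand gene AREG (0.40) and PHLDA1 (0.45) completed the 6 closest. The median over all genes tested was 1.63, and UPP1 itself spanned 3.94 on this scale. PPP1R14B-AS1 is an antisense gene, and counting is not stated to use strand.

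Within 1 Mb of UPP1, 11 genes or unnamed loci had reads, and 1 could be tested. HUS1, a subunit of the DNA damage clamp 9-1-1, was at 16.7, 27.1 and 22.0 CPM in WT and 8.21, 21.2 and 17.9 CPM in S34F (log2 fold change -0.47, edgeR adjusted p = 0.613), so its groups overlapped. SUN3 had 40 WT reads and 2 S34F reads and was too rarely read to be tested. A pair of unnamed loci that overlap the UPP1 models had 7 and 4 WT reads and 0 S34F reads.

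The 95 isoforms used 15 combinations of the exons between 4 and 8. A read was informative when its isoform held both exon 4 and exon 8, which was so for 4985 of 5095 WT reads and 267 of 280 S34F reads. In WT the commonest combination joined exon 4 to exon 5, short exon 6 and exon 8. In S34F the commonest skipped exons 5 to 7 altogether.

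**Figure D2:**
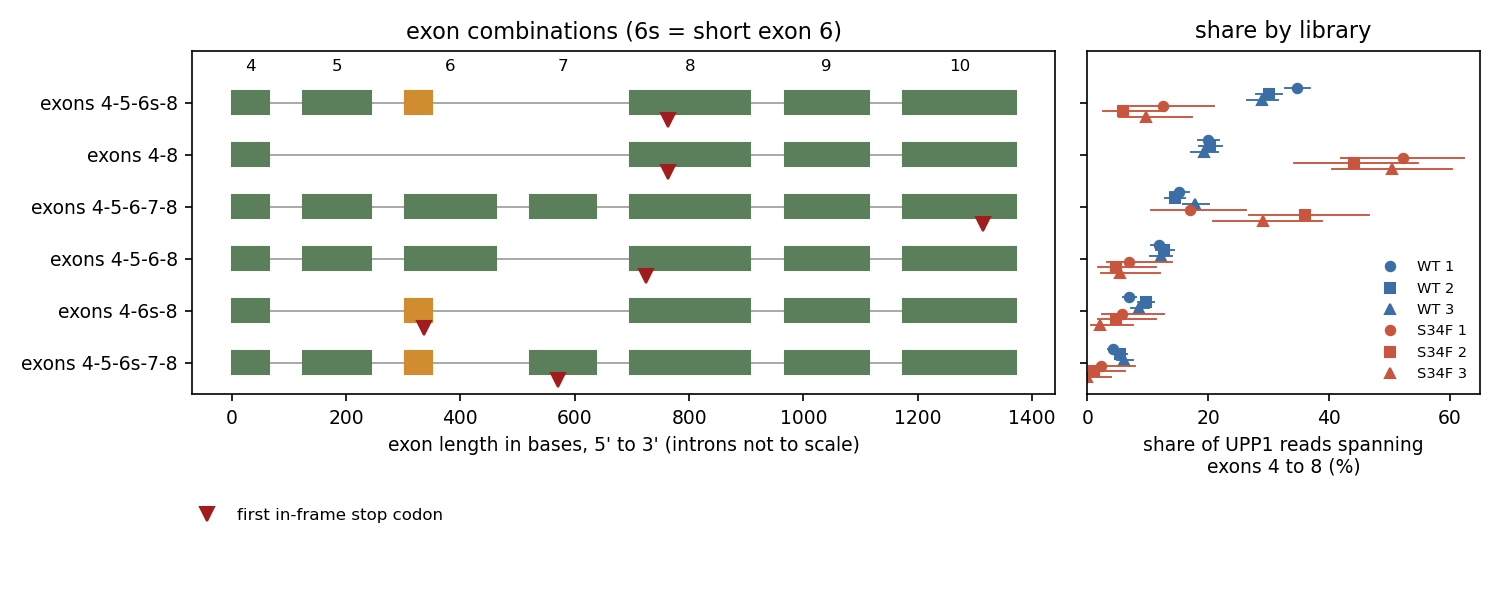
Left, the 6 commonest UPP1 exon combinations with exons drawn to scale from exon 4 to the proximal end, short exon 6 in orange and the first in-frame stop codon as a red triangle. Right, the percentage of informative UPP1 reads with each combination per library, with 95% Wilson intervals as lines; exon 4 joined to exon 8 holds 44.2% to 52.3% in S34F and 19.3% to 20.3% in WT.

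The combination 4-5-short 6-8 made up 34.8%, 30.03% and 28.9% of informative reads in WT libraries 1 to 3 and 12.5%, 5.81% and 9.68% in S34F libraries 1 to 3. The genotypes did not overlap. Its level was 358 ± 125 CPM in WT and 12.4 ± 5.03 CPM in S34F, 28.8-fold lower on 25 S34F reads, beside 8.12-fold for the gene as a whole. The direct 4-8 joint made up 19.97%, 20.3% and 19.3% in WT and 52.3%, 44.2% and 50.5% in S34F. Its share was thus higher in every S34F library, while its level was lower, at 66.9 ± 19.6 against 227 ± 79.7 CPM (3.40-fold).

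The full chain of coding exons, 4-5-long 6-7-8, is the chain that keeps the 310-codon reading frame. It made up 15.1%, 14.5% and 17.9% in WT and 17.0%, 36.0% and 29.03% in S34F. S34F library 1, of isolate 1, lay within the WT range, and S34F libraries 2 and 3, of isolate 2, lay above it. Their 95% Wilson intervals, which cover counting error only because copies made by PCR were not marked, were 10.6% to 26.2%, 26.7% to 46.6% and 20.8% to 38.9%. The level of the full chain was 176 ± 41.5 CPM in WT and 38.7 ± 23.5 CPM in S34F (4.54-fold). The mean difference in its share was 11.5 points, and 7.21 points without S34F library 2.

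Long exon 6 joined straight to exon 8 (4-5-long 6-8) made up 11.9%, 12.8% and 12.1% in WT and 6.82%, 4.65% and 5.38% in S34F. Short exon 6 without exon 5 (4-short 6-8) made up 6.91%, 9.63% and 8.58% in WT and 5.68%, 4.65% and 2.15% in S34F. Both were lower in every S34F library than in any WT library. The chain 4-5-short 6-7-8 had 254 WT reads and 3 S34F reads; in S34F library 3 it had 0 of 93, which allows a share of up to 3.23%. The other 9 combinations each held at most 2.2% of reads on average in either genotype.

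Taken exon by exon, exon 5 was kept in 69.0%, 65.7% and 68.3% of WT reads and in 39.8%, 50% and 46.2% of S34F reads. Exon 6 in any form was kept in 79.0%, 79.3% and 79.8% of WT reads and in 47.7%, 55.8% and 48.4% of S34F reads. Among reads that kept exon 6, the inner 5′ splice site after the first 47 bases was used by 60.9%, 60.6% and 57.3% in WT and by 45.2%, 22.9% and 26.7% in S34F. For all these the genotypes were apart, and for the inner site S34F library 1 lay closer to WT than the others did, with an interval of 31.2% to 60.1%. Exon 7 was kept in 22.0%, 22.6% and 25.8% of WT reads and 21.6%, 38.4% and 29.03% of S34F reads, and the genotypes overlapped.

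Choices in the untranslated first exons differed less. The 5′ splice site of exon 1 at 48128520 was used by 66.0%, 66.8% and 67.7% of WT reads that start in exon 1 and by 70.5%, 52.5% and 57.6% of such S34F reads. The exon 2 site at 48128809 was used by 51.3%, 45.9% and 50.9% in WT and 49.2%, 59.0% and 57.6% in S34F. The exon 2 site at 48128869, the only one of those shown with G before the AG, was used by 30.8%, 31.5% and 30.9% in WT and 32.8%, 24.6% and 22.7% in S34F. All of these ranges overlapped between genotypes, and each S34F value rests on 61 to 66 reads. The inner exon 3 site at 48129847 was used by 17.1%, 20.1% and 18.7% in WT and 15.7%, 8.75% and 12.9% in S34F, without overlap, though S34F library 1 lay close to WT library 1. The remainder used the outer site at 48129785.

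The use of an intron was taken as its share of the gene's reads that span it, where at least 10 spanned it in every library and the minor form reached 5% in a genotype. On these terms 17 UPP1 introns could be compared and 11 of them had shares that did not overlap between genotypes, where 16.5% of 17961 introns in 2903 genes did so; UPP1 was chosen from this contrast, so nothing is read from that count. The intron from 48134425 to 48146469, which removes exons 5 to 7, was used by 19.7% of spanning UPP1 reads in WT and 48.4% in S34F on average. The intron from 48141468 to 48146469, which joins short exon 6 to exon 8, was used by 41.4% and 15.2%. The absolute difference of either was larger than that of 99.8% of introns, but these introns are alternatives over the same region. The median absolute difference was 6.33 points over the 17 UPP1 introns and 2.69 points over all introns. The rank and the medians rest on the contrast that UPP1 was chosen from, so nothing is read from them either.

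The reading frame was followed from the annotated start codon in GENCODE v29 sequence, through each combination without exon 4b or the 163-base form of exon 6. The direct 4-8 joint removes 392 bases and reaches a stop codon in exon 8 after 36 codons. The combination 4-5-short 6-8 reaches one in exon 8 after 91 codons, both 290 bases before the last exon junction. The combination 4-5-long 6-8 stops after 115 codons, 330 bases before that junction. The combination 4-short 6-8 removes 345 bases, a multiple of 3, but meets a stop codon within exon 6 after 25 codons. A stop codon more than 50 bases before the last junction is the usual mark of transcripts degraded by nonsense-mediated decay, and GENCODE v29 labels 5 of its 12 UPP1 transcripts that way.

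Combinations with such an early stop made up 82.3%, 82.8% and 79.0% of informative reads in WT and 81.8%, 61.6% and 69.9% in S34F. S34F library 1 again lay within the WT range and libraries 2 and 3 below it. Among the early-stop reads themselves, the direct 4-8 joint was the commonest combination in S34F and 4-5-short 6-8 in WT. In level, early-stop reads were at 930 ± 325 CPM in WT and 97.4 ± 31.3 CPM in S34F. Whether any of these transcripts was degraded or translated was not measured.

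Isoforms were spread thinly over the 95 models. The 8 with the highest mean share held 37.1% of UPP1 reads in WT and 44.3% in S34F. The first of them, 7 exons with the direct 4-8 joint and the proximal end, had 162, 113 and 102 reads in WT and 20, 19 and 20 in S34F. That is 7.43% ± 0.97 of UPP1 reads in WT and 21.2% ± 1.51 in S34F (SD, n = 3). The second, 9 exons with 4-5-short 6-8 and the distal end, had 208, 161 and 103 reads in WT and 1, 0 and 3 in S34F. These were the leading isoforms of S34F and of WT, in that order, and they differ in both exon chain and 3′ end.

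A pair of 10-exon full-chain isoforms with the proximal end, which differ in the 5′ splice site of exon 1, had 143 and 122 reads in WT and 18 and 9 in S34F. S34F library 1 held 1 read of each, and S34F libraries 2 and 3 held all the others. A pair of isoforms that begin within exon 2 and end distally, one with 4-5-long 6-8 and one with 4-short 6-8, had 299 and 268 reads in WT and 7 each in S34F. The remaining isoforms among the 8 were a distal 4-5-short 6-8 isoform (184 WT and 6 S34F reads) and a shorter proximal 4-8 isoform (40 and 13 reads).

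WT libraries read 95, 95 and 94 of the isoforms and S34F libraries 44, 30 and 38. Drawing from each WT library only as many UPP1 reads as the S34F library of the same number held would give 43.7, 43.9 and 47.7 isoforms on average. S34F library 1 was close to the number that its depth gives, and S34F libraries 2 and 3 were below it. In all, 61 isoforms had reads in both genotypes. At least 10 WT reads and 0 S34F reads were found for 29 isoforms, and the opposite for 0. With 5095 UPP1 reads in WT and 280 in S34F, the first rule is far easier to meet than the second. The share of all isoforms in the series that meet either rule was not computed, so nothing is read from these counts. These 29 had 12 to 110 WT reads each, or 0.24% to 2.16% of WT reads, while 0 of 280 S34F reads allows a share of up to 1.07%. All 29 end proximally, as do 80 of the 95 isoforms, and 18 of them hold short exon 6, as do 39 of the 95.

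The distal 3′ end held 37.4%, 41.1% and 35.1% of UPP1 reads in WT libraries 1 to 3 and 19.8%, 16.3% and 25.2% in S34F libraries 1 to 3. The genotypes did not overlap; among 1541 genes with 2 ends to compare on the same limits, 12.1% did not overlap and in 5.84% every S34F library lay below every WT library in distal share. Distal reads were at 446 ± 178 CPM in WT and 28.0 ± 2.94 CPM in S34F, and proximal reads at 712 ± 203 and 115 ± 40.3 CPM. Both ends were thus lower in S34F, the distal by 16.0-fold and the proximal by 6.18-fold. The difference in distal share, -17.4 points, was exceeded in size by 35 of the 1541 genes. The median absolute difference of all 1541 was 2.93 points. UPP1 was chosen from the contrast between genotypes, so nothing is read from this rank, the median or the lack of overlap. S34F library 3 owed 9 of its 26 distal reads to a 3-exon isoform that does not reach exon 4, singled out after its values were seen. Among reads spanning exons 4 to 8 the distal share was 37.0%, 40.4% and 33.7% in WT and 19.3%, 16.3% and 18.3% in S34F.

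**Figure D3:**
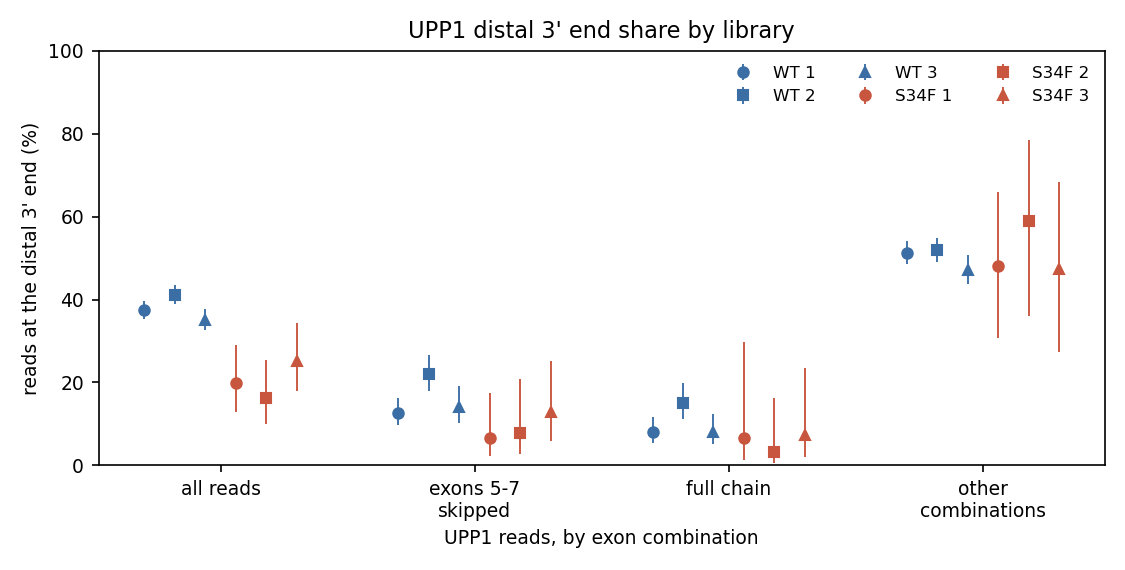
Percentage of UPP1 reads at the distal 3′ end in each library (points) with 95% Wilson intervals (lines), for all reads and by exon combination. Over all reads WT libraries lie at 35.1% to 41.1% and S34F libraries at 16.3% to 25.2%; within the other combinations, WT libraries lie at 47.2% to 51.9% and S34F libraries at 47.4% to 58.8%.

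Split by exon combination, the distal share was uneven in both genotypes. Where exons 5 to 7 were all skipped it was 12.6%, 21.9% and 14.1% in WT and 6.52%, 7.89% and 12.8% in S34F, which overlapped. In the full chain it was 8.0%, 14.96% and 8.07% in WT and 6.67%, 3.23% and 7.41% in S34F, without overlap but on 4 distal S34F reads in all. In the other combinations it was 51.3%, 51.9% and 47.2% in WT and 48.1%, 58.8% and 47.4% in S34F, which overlapped. With the WT shares held fixed within each combination, the combinations of S34F libraries 1 to 3 would give distal shares of 27.1%, 21.7% and 27.1%, a mean of 25.3% beside the 20.4% read and the 37.9% of WT. Reads not informative for exons 5 to 7 were counted there as a combination of their own. Only 2 of 87 intron chains were modelled with both ends, so what part exon choice has in the end shares was not tested.

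Within each library, the exon chains of distal-end and proximal-end reads were compared, which does not use the contrast between genotypes. Exon 6 was kept in 93.2%, 89.0% and 91.9% of distal and 70.5%, 72.6% and 73.5% of proximal reads in WT, and in 82.4%, 78.6% and 64.7% of distal and 39.4%, 51.4% and 44.7% of proximal reads in S34F. It was kept more often in distal reads in all 6 libraries, by 24.6 ± 9.73 points (SD, n = 6). The inner 5′ splice site of exon 6 was likewise commoner in distal reads in all 6 libraries, by 33.1 ± 14.4 points. It was used by 72.4%, 70.9% and 75.1% of distal WT reads with exon 6 and by 64.3%, 63.6% and 63.6% of such S34F reads. Among proximal reads it was used by 52.0%, 52.0% and 46.1% in WT and 35.7%, 10.8% and 14.7% in S34F.

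Distal reads held exon 7 less often in all 6 libraries, by -22.4 ± 10.4 points, and the full chain less often, by -20.7 ± 7.35 points. The direct 4-8 joint differed by -23.7 ± 10.2 points. Reads of the distal end also began in exon 1 less often, by -57.8 ± 7.39 points. These 6 features each gave p = 0.03125 in an exact two-sided sign-flip permutation test over the 6 libraries, the smallest that 6 libraries allow, and a Benjamini-Hochberg adjusted p of 0.078 over the 15 features tested. Exon 5 differed by 9.73 ± 15.5 points, in the same direction in 5 of 6 libraries (exact permutation p = 0.156). No feature could have passed 0.05 with this adjustment, because the smallest adjusted p that these libraries allow is 0.067; the adjusted values therefore say nothing for or against a difference between ends. Sites in exons 1 to 3 had enough distal reads in only 3 or 4 libraries, where the smallest p is 0.25 or 0.125.

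The transcript models limit this comparison. Of 87 intron chains only 2 were modelled with both ends, 12 isoforms end distally and 80 proximally, so a read's chain and end were largely assigned together. What part that assignment has in the differences between ends was not tested.

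**Figure D4:**
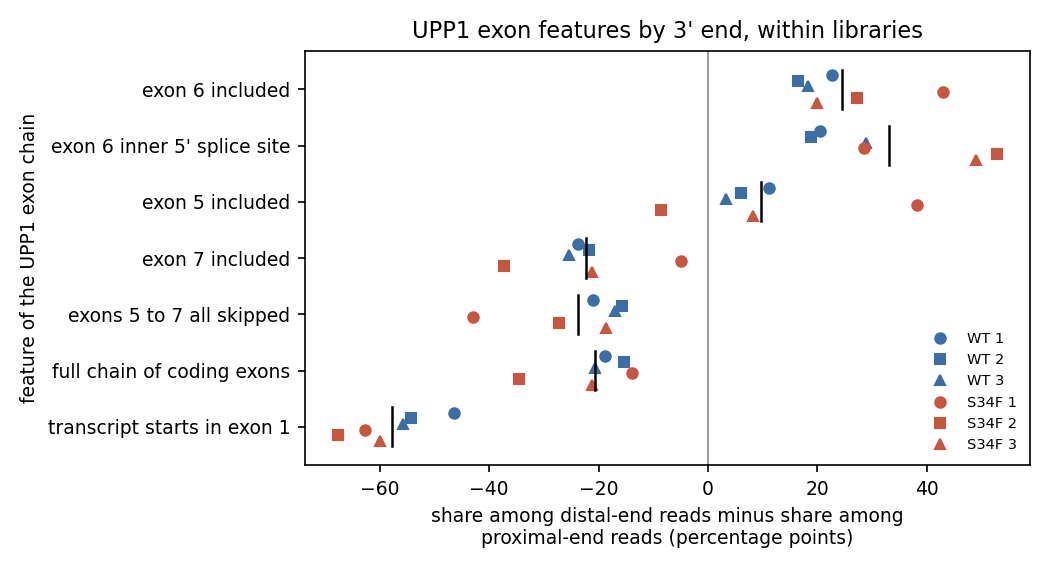
Share of each exon feature among distal-end reads minus its share among proximal-end reads, in percentage points, for each library (points) and as the mean of 6 (black lines). Except for exon 5, where S34F library 2 lies below 0, all 6 libraries lie on 1 side of 0 for each feature.

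The genes around UPP1 in uridine and pyrimidine metabolism were taken from 4 lists of 56 genes, of which 43 had reads and 33 could be tested by edgeR. At an adjusted p of 0.05, 0 of them passed, against 3.24% of all genes tested (2.13% lower and 1.11% higher in S34F). An unadjusted edgeR p under 0.05 was found for 10 of the 33, beside 1197 of all 7033 genes tested. DESeq2 and limma-voom also called 0 of the list members. The median log2 fold change of the 33 was 0.29 and that of all genes was 0.02. Calls appeared when an S34F library was left out: SLC29A1, DUT and UCKL1 without replicate 1, and CAD, NT5E, TKT and TK1 without replicate 2. These were 3 and 4 of 33 tested members. Calls over all genes also rose in these fits, from 228 with all libraries to 519 and 655, so nothing is read from the list calls.

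**Figure D5:**
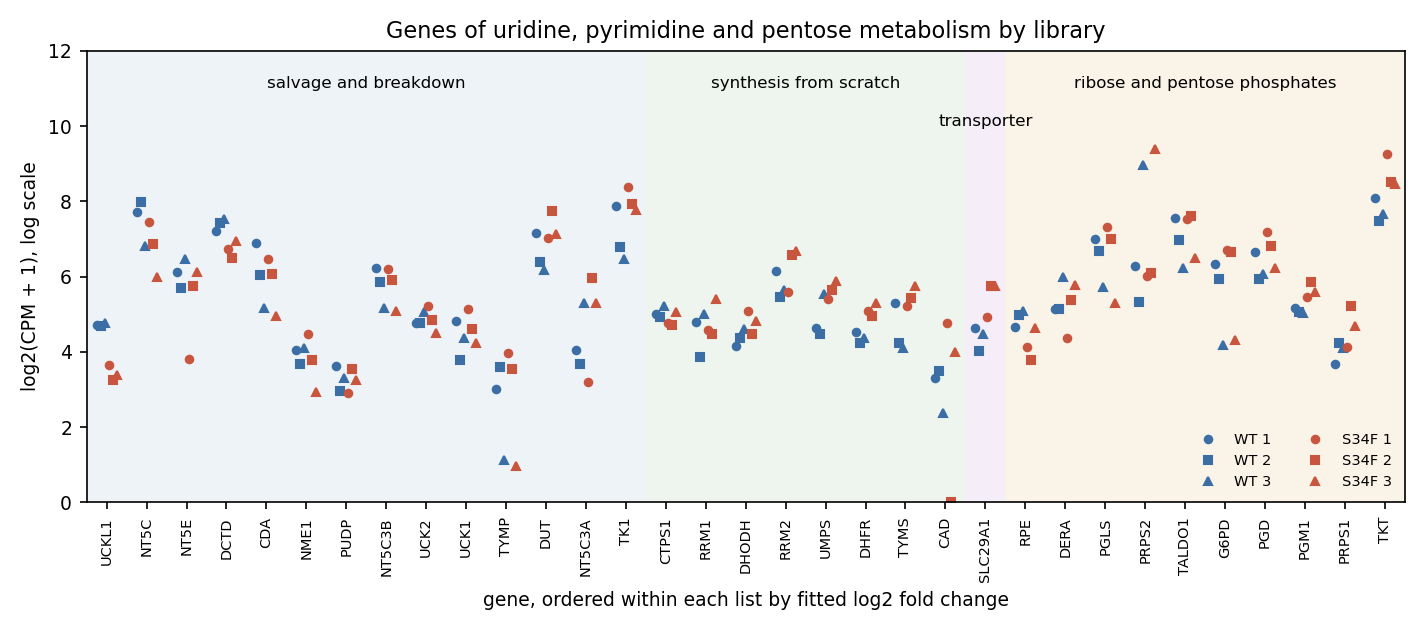
Level of the 33 tested genes in each library, as log2(CPM + 1), shaded by list and ordered within a list by log2 fold change. WT and S34F points intermix for most genes; CAD has 0 reads in S34F library 2.

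Salvage and breakdown enzymes handle uridine beside UPP1. Of 25 listed, 14 were tested and 0 called, with a median log2 fold change of -0.07. For 9, among them the related phosphorylase gene UPP2, the deposited counts held no isoform. TK1 (thymidine kinase), the tested member with the highest mean over both genotypes though not in WT alone, was at 143 ± 78.4 CPM in WT and 264 ± 62.8 CPM in S34F (edgeR adjusted p = 0.151). NT5C, which removes the phosphate of pyrimidine nucleotides, was at 190 ± 71.5 and 117 ± 55.9 CPM (edgeR adjusted p = 0.194). DCTD, dCMP deaminase, was at 168 ± 17.9 and 106 ± 16.8 CPM (edgeR adjusted p = 0.208). UCKL1, uridine-cytidine kinase 1 like 1, was singled out after its values were seen: it was at 25.0, 24.6 and 26.2 CPM in WT and 11.5, 8.50 and 9.45 CPM in S34F (edgeR log2 fold change -1.35, adjusted p = 0.0727). The uridine kinase gene UCK2 was at 28.2 ± 3.39 and 28.5 ± 7.25 CPM.

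Of 10 genes that make pyrimidine nucleotides from scratch, 8 were tested and 0 called, with a median log2 fold change of 0.65. RRM2, a ribonucleotide reductase subunit, was at 54.1 ± 13.8 CPM in WT and 81.0 ± 29.2 CPM in S34F (edgeR adjusted p = 0.424). UMPS, which makes UMP, was at 30.3 ± 13.5 and 49.5 ± 8.77 CPM (edgeR adjusted p = 0.24), and TYMS, thymidylate synthase, at 24.2 ± 12.6 and 43.8 ± 8.46 CPM (edgeR adjusted p = 0.248). Of 7 nucleoside transporters only SLC29A1, the equilibrative transporter ENT1, was tested. It was at 23.8, 15.3 and 21.4 CPM in WT and 29.6, 53.1 and 52.9 CPM in S34F (edgeR log2 fold change 1.13, adjusted p = 0.0951); every S34F library lay above every WT library.

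Of 14 genes that use ribose 1-phosphate or pentose phosphates, 10 were tested and 0 called, with a median log2 fold change of 0.34. TKT, transketolase, was at 273, 177 and 200 CPM in WT and 616, 361 and 350 CPM in S34F (edgeR log2 fold change 1.01, adjusted p = 0.101). PRPS2, a phosphoribosyl pyrophosphate synthetase, was at 502 and 669 CPM in the B2 libraries of WT and S34F and at 76.9 CPM or less in all B1 libraries. TALDO1, transaldolase, was at 129 ± 57.7 and 156 ± 58.5 CPM (edgeR adjusted p = 0.67).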

How the data were processed

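PolyA-primed cDNA of 6 HBEC3kt libraries was sequenced by nanopore, per the labels' protocols. The authors deposited whole-number counts of reads per isoform and, in separate transcript models, exon positions in hg19, per the submitters' processing notes; the sources used here do not name the aligner, isoform caller settings or strand use. Isoform counts were summed per gene. UPP1, the gene lists and the tests were chosen with earlier results of these data known.

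Genes were tested with edgeR 4.0.16 (quasi-likelihood, TMM scaling, low-count filter, B1/B2 mark as a term; Benjamini-Hochberg over 7033 genes; residual degrees of freedom 3), and the fit was tested on simulated data. DESeq2 1.42.0 and limma 3.58.1 were alternatives. CPM used TMM-scaled library sizes. Shares are percentages of informative reads with 95% Wilson intervals, which cover counting error only; a count of 0 allows 3 counts of the total. Features were named when the minor form held at least 5% of reads pooled by genotype; ends within 100 bases were merged; comparisons between ends needed 10 reads at each. Named isoforms were the 8 with the highest mean share and those with at least 10 reads in 1 genotype and 0 in the other; named genes were called list members, the 3 most abundant tested per list, all neighbours with reads within 1 Mb, and the 6 of closest pattern. Deviations of same-numbered WT and S34F libraries correlated across genes at 0.49, 0.16 and 0.85, each above the limit of 0.1 set for taking the numbers as pairing the libraries. The numbers were not singled out by this check: WT 2 with S34F 1 gave 0.54 and WT 1 with S34F 2 gave 0.33, and all B1 with B2 pairs were negative (-0.72 to -0.31), so it mainly separates B1 from B2.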

Additional observations from a re-analysis of the deposited data

How the results depend on the processing

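The splits by combination and by end were alternatives chosen after seeing the data. The UPP1 log2 fold change stayed between -3.12 and -2.93 when each library was left out, and kept its direction in the other edgeR fits run (scaling, filter, B1/B2 term, replicate block, B1 libraries, isolate 2 summed). The distal share difference ranged from -19.9 to -15.4 points when each library was left out; it was -7.15 points within the direct 4-8 joint, -4.58 within the full chain and 1.32, the opposite sign, within the other combinations. Differences in the 4-8 joint, the full chain and the inner exon 6 site ranged over 27.5 to 31.5, 7.21 to 16.7 and -34.8 to -23.6 points with each library left out, and were 16.1, 3.95 and -8.95 points among distal-end reads alone, which in S34F number 48 spanning exons 4 to 8 and, for the inner site, 14, 11 and 11 by library; among proximal-end reads they were 27.8, 8.83 and -29.6 points.

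Of all genes, edgeR called 228; it called 491 without the filter, 2 without the B1/B2 term, 79 in B1 libraries alone, 0 with isolate 2 summed (287 at an unadjusted p under 0.05), 187 with the replicate block, and 67 to 655 with each library left out (655 without S34F replicate 2, 67 without WT replicate 3). The lists had 0 called members, 0 with the replicate block, 1 (UCKL1) without the filter, and 0 to 4 with each library left out. The comparison of ends could not call a feature after adjustment in any setting (smallest possible adjusted p 0.052, with at least 5 reads per end), so its 0 calls are no sign of stability. The share difference using only isoforms with annotated identifiers was not run, since only 2 isoforms have one. The 280 S34F reads limit every S34F share.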
